A study of Mus musculus with 6 samples.

Results

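The wild-type (WT) baseline transcriptome of mouse LSK cells is described here from the 3 libraries labelled WT, out of 6 in the series, each from the bone marrow of a different mouse. A gene was counted as expressed when its FPKM (counts per gene, divided by gene length and by the library's total count) was 1 or more in all 3 WT libraries. This rule kept 10724 of the 23420 genes in the tables, or 45.8%. The WT mice were littermates of bcat(ex3)osb mice, in which β-catenin signalling is constitutively active in osteoblasts, and the bcat(ex3)osb libraries were not used. The labels give the WT mice no treatment, age, sex or strain. Total RNA was sequenced after stranded library preparation. Below, 3 values in a row are for WT mice 1, 2 and 3 in that order. A level is the deposited FPKM, which is scaled to gene length. Levels are set side by side between genes with the limit, described below, that the libraries differed along gene length.

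LSK cells lack the surface markers of mature blood lineages and carry Sca-1 and c-Kit. The fraction holds the haematopoietic stem cells, which are mostly quiescent, and the more numerous multipotent progenitors, some of which are already primed for the lymphoid, the granulocyte-monocyte or the megakaryocyte-erythroid lineages. Stem cells are kept by a network of transcription factors and by cytokine and adhesion receptors that tie them to the niche. A bulk library averages over all of these cells, so for every gene below fewer cells of a type and less RNA per cell cannot be told apart.

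The 3 libraries had total counts of 19530103, 15431235 and 19956774, and between 14530 and 15102 genes with a count. The median expressed gene was 2738 bases long, and at the median length of expressed genes 1 count was worth between 0.0183 and 0.0237 FPKM, so the threshold lay well above a single count. The library of WT mouse 2 stood apart. It lay farthest from the gene's mean in 63.5% of expressed genes, and 619 genes held 50% of its FPKM, against 1035 and 910 genes in WT mice 1 and 3. This difference followed gene length: in the shortest of 20 length bins (median 586 bases) the median log2 deviation from the gene's mean was -0.45, 0.60 and -0.15, and in the bin of median length 4327 bases it was 0.27, -0.37 and 0.11. The share of the counts taken by the ribosomal RNA precursor Rn45s was also highest in WT mouse 2, at 0.267%, 0.969% and 0.327%. Whether these properties of the library of WT mouse 2 account for a given gene's difference was not tested. Levels are therefore given as deposited and, where the difference bears on a result, again after each library's median deviation per length bin was subtracted. Reads of genes with near-identical relatives (ribosomal protein, histone and major histocompatibility genes among them) are uncertain, since how the counting treated reads with more than 1 match is not given in the sources used here.

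Genes that define the fraction were all expressed. Kit, the stem cell factor receptor by which LSK cells are sorted (chromosome 5, 75574987 to 75656722 on GRCm38.p6), was at 204, 62.1 and 143 FPKM. It was highest in WT mouse 1 and lowest in WT mouse 2, with a coefficient of variation (CV, the SD over the mean) of 0.522. The mean of 136 ± 71.2 FPKM (SD, n = 3) put it at rank 709 of the expressed genes. With the length trend removed the 3 values were 169.7, 79.3 and 134 FPKM, with a CV of 0.357. Ly6a, which encodes Sca-1 (chromosome 15, 74994877 to 74998031), was at 156, 161 and 160.5 FPKM, and the 3 mice lay within 1.03-fold of each other (CV 0.0163, rank 568). That evenness held as deposited only: as a gene of 1002 bases it lay in a bin that was raised in WT mouse 2, and without the trend it was at 195, 119 and 175 FPKM (CV 0.242). Cd34, a sialomucin that progenitors carry and the most dormant mouse stem cells lack (chromosome 1, 194938821 to 194961292), was at 516, 399.6 and 479.6 FPKM and ranked 117. Flt3, the cytokine receptor of multipotent and lymphoid-primed progenitors (chromosome 5, 147330741 to 147400489), was at 356, 203 and 257 FPKM and ranked 265. Cd34 and Flt3 thus stood above Kit and Ly6a in each of the 3 mice. The transcription factor genes Meis1 (chromosome 11, 18880428 to 19019651) and Gata2 (chromosome 6, 88193891 to 88207032) were lower, at 85, 46.2 and 60.7 FPKM and at 52.6, 40.05 and 38.5 FPKM, with ranks 1777 and 2615. Ptprc, the pan-leukocyte phosphatase CD45, was at 59.97, 39.4 and 53.7 FPKM. Its values came together to 49.9, 50.2 and 50.3 FPKM once the length trend was removed.

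**Figure D1:**
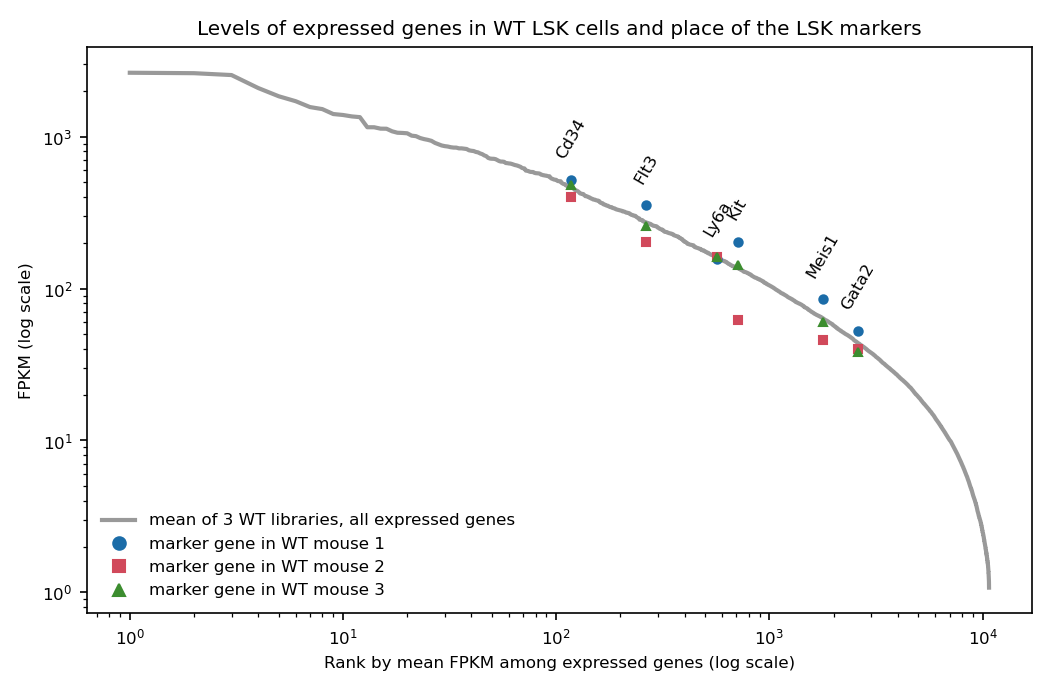
Mean FPKM of the 10724 expressed genes (y axis, log scale) against rank by mean FPKM (x axis, log scale), with the FPKM of the 6 LSK marker genes in each WT mouse as points. Cd34 (rank 117) stands highest of the 6 and Gata2 (rank 2615) lowest, and the points of Kit spread from 62.1 to 204 FPKM.

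Mean levels of expressed genes ran from 1.07 to 2640 FPKM with a median of 17.2. A mean of 1 to under 10 FPKM was found for 3699 genes, 10 to under 100 for 5966, 100 to under 1000 for 1037, and 1000 or more for 22. By RefSeq biotype 96.5% of the 10676 matched genes were protein-coding, and 247 were long non-coding RNAs, with a lower median of 4.48 FPKM. At the threshold, 519 genes had their lowest library between 1 and 1.5 FPKM and 744 between 0.5 and under 1 FPKM. Among the listed genes, Acvr1b (1.25, 1.01 and 1.27 FPKM), an activin receptor, and Csf2rb2 (3.92, 1.18 and 2.32 FPKM), an interleukin-3 receptor chain, lay just inside. Pax5 (0.85, 0.97 and 3.11 FPKM), the B cell commitment factor, and the chemokine receptor gene Cx3cr1 (1.30, 0.97 and 2.98 FPKM) lay just outside. Pax5 missed the threshold in WT mice 1 and 2 and Cx3cr1 in WT mouse 2 alone.

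The 15 highest genes were Actb, B2m, Ppia, Gpx1, Pfn1, H2afy, Rpl13, Rpl32, Tmsb4x, Ftl1, Eef1a1, Arhgdib, H2-K1, Cfl1 and Rps14. Among them, Actb, cytoplasmic actin, was at 2448, 2618 and 2854 FPKM, Pfn1, profilin, at 1379.8, 2538 and 1623 FPKM, and Tmsb4x, the actin monomer-binding thymosin, at 1236, 1392 and 1606 FPKM. The class I histocompatibility genes B2m, the light chain, and H2-K1, a heavy chain, were at 2002, 3310.3 and 2553 FPKM and 1163, 1229 and 1074 FPKM. Gpx1, a peroxidase that removes hydrogen peroxide, was at 1477, 2995 and 1810.5 FPKM. H2afy, the histone variant macroH2A, ranked 6 at 1479.9, 2009 and 1654 FPKM. As deposited, WT mouse 2 was the highest of the 3 for 13 of these 15 genes, against 37.2% of all expressed genes, the exceptions being Actb and Tmsb4x, for which WT mouse 3 was highest. Short genes were raised in WT mouse 2, by a median log2 deviation of 0.60 in the shortest length bin. The part of gene length in this count was not tested.

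Transcription factors of stem and progenitor cells were expressed for 24 of 27 listed genes, at a median of 22.6 FPKM, beside 17.2 over all expressed genes. Lmo2, the LIM-domain bridge of the haematopoietic factor complex, stood far above the rest at 457, 414 and 396 FPKM (CV 0.075, rank 131). Its DNA-binding partners were much lower: Lyl1 was at 16.4, 29.4 and 21.3 FPKM and Tal1 at 4.63, 5.17 and 3.97 FPKM. So the 2 helix-loop-helix partners differed from each other in every mouse, with Lyl1 the higher. Hhex, a homeobox factor of definitive blood cells, was at 145, 157 and 139.7 FPKM, and Myb, needed for definitive haematopoiesis, at 120.2, 87.8 and 119 FPKM. The ETS factors Fli1 and Erg, both part of the stem cell network, were at 62.8, 39.6 and 54.2 FPKM and 22.5, 24.3 and 30.1 FPKM. Runx1, which is required for the emergence of blood stem cells, was lower at 15.7, 13.5 and 19.4 FPKM.

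The Hox genes were split by cluster. Hoxa9, a self-renewal factor that acts with Meis1, was at 35.5, 34.6 and 27.6 FPKM, and Hoxa7, Hoxa10 and Hoxa5 had means of 19.9, 8.64 and 3.92 FPKM. Of the B cluster, Hoxb4 was at 0.64, 1.72 and 1.03 FPKM, and Hoxb3 and Hoxb5, of which Hoxb5 marks long-term stem cells, did not exceed 0.45 FPKM in any mouse. Hlf, a leucine zipper factor of stem cells, was at 61.6, 35 and 38.2 FPKM. Factors tied to the most primitive cells were uneven. Mecom, which encodes EVI1, was at 15.5, 3.24 and 6.17 FPKM and had the highest CV of the list (0.772, 0.613 without the length trend). Prdm16 was at 4.02, 2.15 and 2.58 FPKM, and Mycn, which acts together with Myc in stem cell growth and survival, at 133, 46.3 and 71.3 FPKM. For Mecom, Prdm16 and Mycn alike, WT mouse 1 was highest and WT mouse 2 lowest, although Mycn stood far above both others. A range of at least 2-fold between the highest and the lowest mouse was seen for 5 of the 24 expressed factors, against 18.5% of all expressed genes, and for 4 once the length trend was removed, against 9.64%. The 5 were Mecom, Mycn, Etv6, an ETS repressor needed for adult marrow haematopoiesis, Zfp521, a zinc finger factor of immature cells, and Ikzf2 (Helios).

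Surface markers of stem and progenitor subsets were expressed for 20 of 22. Gpr56 (Adgrg1), an adhesion receptor of stem and progenitor cells, was the highest at 705, 381 and 576 FPKM. Cd48, carried by multipotent progenitors and not by the dormant stem cell, was at 247, 402 and 349 FPKM, whereas Slamf1, the CD150 antigen of stem cells, was at 2.84, 1.18 and 1.36 FPKM. CD150 transcripts were therefore about as low as the expression threshold in WT mice 2 and 3, and Cd48 ranked 191. Procr, the endothelial protein C receptor of stem cells, was at 31, 27.4 and 19.8 FPKM, and Esam, an adhesion molecule of the same cells, at 28.5, 20.8 and 16.9 FPKM. Tek, the angiopoietin receptor TIE2, was at 5.59, 1.57 and 1.41 FPKM with a CV of 0.829, high in WT mouse 1 alone. Its ligand gene Angpt1 was expressed in the same libraries at 75.5, 58.8 and 51.3 FPKM.

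Regulators of stem cell state outside the transcription factors included quiescence genes. Txnip, an inhibitor of thioredoxin that restrains glucose uptake, was even at 114, 107 and 115 FPKM. Of the CDK inhibitors, Cdkn1c (p57), which holds stem cells in quiescence, was at 11.8, 9.68 and 8.08 FPKM, Cdkn1a (p21) at 8.42, 22.9 and 20.1 FPKM and Cdkn1b (p27) at 3.66, 10.8 and 5.52 FPKM. Cdkn1c was thus highest in WT mouse 1, and Cdkn1a and Cdkn1b were lowest there. Several genes known from the most primitive cells were at least 2-fold higher in WT mouse 1 than in either other mouse: Tgm2, a transglutaminase, at 10.04, 2.78 and 2.20 FPKM, Fgd5, a guanine exchange factor that marks stem cells, at 6.15, 1.33 and 2.62 FPKM, and Ctnnal1, encoding α-catulin, at 6.25, 1.81 and 3.03 FPKM. With Tek, Slamf1 and Mecom, 6 genes of the stem cell lists were among the 64 expressed genes (0.597%) for which WT mouse 1 stood at least 2-fold above both others. The megakaryocyte gene Mmrn1, multimerin, which stem cells also express, was a further gene of that kind at 28.8, 8.32 and 10.1 FPKM.

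**Figure D2:**
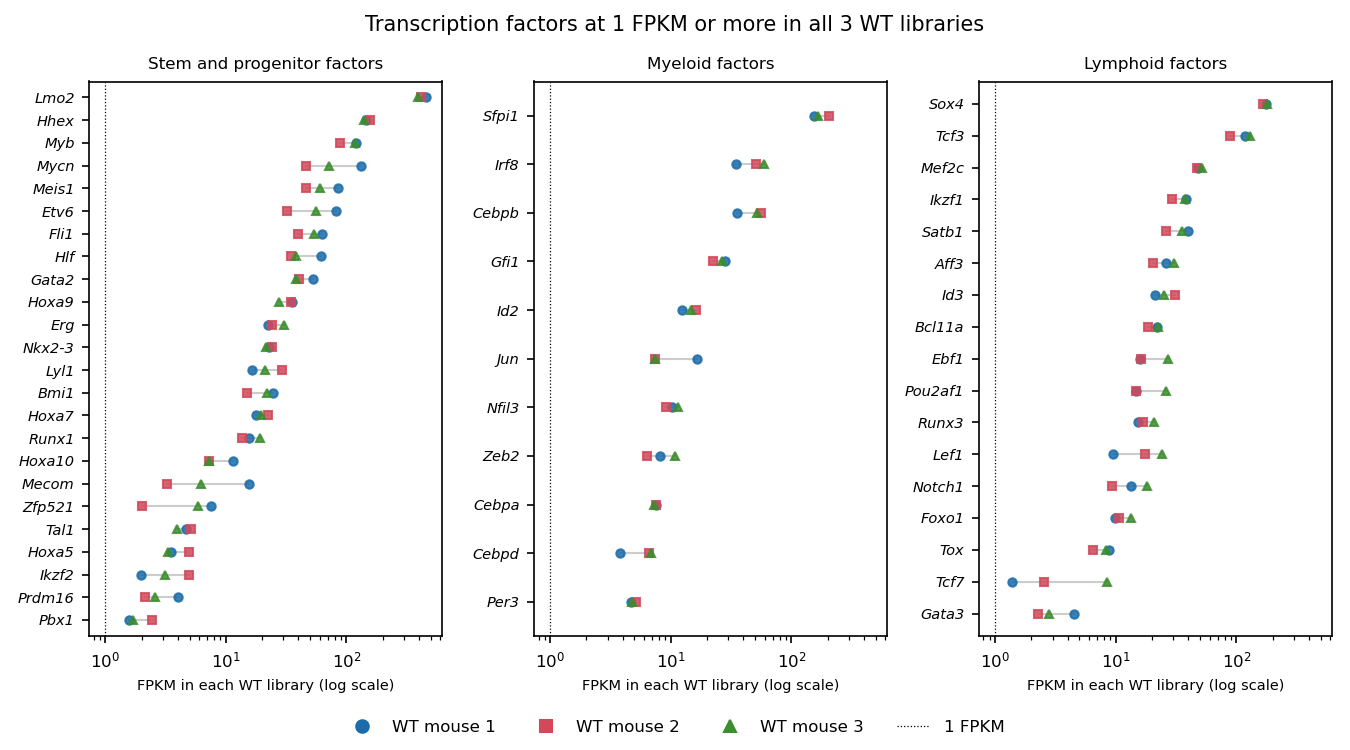
FPKM of transcription factor genes expressed in all 3 WT mice (x axis, log scale, dotted line at 1 FPKM), by list: stem and progenitor, myeloid and lymphoid; each symbol is a WT mouse and each grey line joins a gene's 3 values. Lmo2 leads the first panel at 396 to 457 FPKM, Sfpi1 (PU.1) the second at 154 to 207 and Sox4 the third at 166 to 178, while Mecom and Tcf7 span the widest ranges of their panels.

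Myeloid factors were led by Sfpi1, the gene of PU.1 (Spi1), which directs both granulocyte-monocyte and lymphoid fates, at 154, 207 and 167 FPKM. Irf8, the monocyte and dendritic cell factor, was at 34.5, 50.7 and 59.8 FPKM and Gfi1, a repressor in granulocyte and stem cells, at 28.2, 22.4 and 26.3 FPKM. Cebpa, which opens the granulocyte-monocyte programme, was far below PU.1 and, as deposited, nearly identical in the 3 mice at 7.49, 7.51 and 7.31 FPKM (CV 0.0148). Without the length trend Cebpa was at 6.98, 8.28 and 7.02 FPKM (CV 0.0994). Cebpe, the factor of late granulocyte maturation, was at 0.79, 2.41 and 1.21 FPKM and did not meet the threshold. In all, 11 of 13 were expressed, with 1 over a 2-fold range, Jun (16.6, 7.44 and 7.36 FPKM), against 18.5% of all expressed genes.

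Lymphoid factors were expressed for 17 of 20. Sox4, needed for B cell development, was at 176, 166 and 178 FPKM, and Tcf3, the gene of E2A, at 118, 88.1 and 129.7 FPKM. Ikzf1 (Ikaros), which primes progenitors for lymphoid fates, was at 38.6, 29.1 and 37.5 FPKM, and Ebf1, the factor that specifies B cells, at 15.9, 16.2 and 27 FPKM. WT mouse 3 was the highest of the 3 for 12 of the 17 expressed lymphoid factors, against 20.4% of all expressed genes. The gap was widest for Tcf7, the T cell factor TCF-1, at 1.37, 2.55 and 8.53 FPKM (CV 0.925), and its relative Lef1 was at 9.55, 17.4 and 24.2 FPKM. Pou2af1, a B cell coactivator, was at 14.6, 14.8 and 26.1 FPKM and Notch1, the receptor that starts T cell specification, at 13.4, 9.40 and 18.1 FPKM. Gata3 went the other way, at 4.48, 2.28 and 2.81 FPKM. Tcf7 and Lef1 were the 2 of the 17 factors with a range of 2-fold or more, against 18.5% of all expressed genes. Bcl11b, the T cell commitment factor, did not exceed 0.34 FPKM.

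All 26 chromatin regulators listed from clonal haematopoiesis and the Polycomb group were expressed, at a median of 17.1 FPKM. The highest was Idh2, the mitochondrial isocitrate dehydrogenase mutated in myeloid leukaemia, at 322, 353 and 347 FPKM. The de novo DNA methyltransferase gene Dnmt3a was at 19, 14.7 and 18.5 FPKM, below its relative Dnmt3b at 48.1, 28.2 and 43.6 FPKM in each mouse. Tet1, Tet2 and Tet3, which oxidise methylated cytosine, were low. Tet2, which is often mutated in clonal haematopoiesis, was at 4.22, 3.52 and 4.78 FPKM, and the means of Tet1 and Tet3 were 4.83 and 5.33 FPKM. Ezh2, the Polycomb methyltransferase of dividing cells, was at 50.1, 82.7 and 61.9 FPKM, and its relative Ezh1 at 25.9, 12.6 and 19.7 FPKM. Asxl1, a cofactor in histone deubiquitination, was at 17.6, 9.61 and 15.5 FPKM. The list was among the steadier ones, with a median CV of 0.173 against 0.198 for all expressed genes.

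Growth factor receptors of the cytokine class were expressed for 22 of 28 genes. After Flt3 came Il2rg, the common gamma chain, at 239, 204 and 221 FPKM (CV 0.0799), and then Kit. Without the length trend Il2rg was less even, at 259, 182 and 227 FPKM (CV 0.173). Csf3r, through which G-CSF drives granulocyte production, was at 60.5, 32.4 and 56.5 FPKM. Csf2rb, the beta chain shared by the receptors for interleukin-3 and GM-CSF, was at 22.7, 14.8 and 22.7 FPKM. Il3ra, the chain that binds interleukin-3, was lower at 7.71, 10.6 and 9.85 FPKM. Lineage-restricted receptors were in the same range or lower. Il7r, the interleukin-7 receptor of lymphoid progenitors, was at 7.62, 9.04 and 15.2 FPKM, Csf1r, the macrophage colony-stimulating factor receptor, at 9.22, 5.50 and 15.4 FPKM, and Epor, the erythropoietin receptor, at 2.27, 1.74 and 1.26 FPKM. Il7r and Csf1r were highest in WT mouse 3, and Epor in WT mouse 1. A 2-fold range was found for 9 of 22, with and without the length trend, beside 18.5% and 9.64% of all expressed genes. Pdgfrb, a receptor better known from mesenchymal cells, was at 13.6, 6.21 and 14.9 FPKM, while Lepr, the leptin receptor of marrow stroma, did not exceed 0.06 FPKM.

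Inflammatory receptors were expressed for 20 of 27. Ifngr1, for interferon gamma, was among the highest at 98.3, 96.5 and 88 FPKM. Of the chains for type I interferon, Ifnar2 was at 65.1, 65.2 and 69.8 FPKM and Ifnar1 lower in every mouse at 21.8, 11.4 and 16.9 FPKM. Il17ra, the interleukin-17 receptor, led the list at 122, 65 and 107 FPKM. Both tumour necrosis factor receptors were expressed, Tnfrsf1a evenly at 45.9, 44.9 and 43.6 FPKM and Tnfrsf1b at 36.6, 13.8 and 27.8 FPKM. Il1r1, through which interleukin-1 acts on stem cells, was at 26.4, 9.28 and 17.5 FPKM, while Il1rl1, the interleukin-33 receptor, did not exceed 0.19 FPKM. Of the Toll-like receptors Tlr2, Tlr7 and Tlr4 were expressed, with means of 6.56, 5.96 and 4.31 FPKM and the lowest value in WT mouse 2 each time. The count of genes over a 2-fold range fell from 9 to 4 of 20 once the length trend was removed, beside 18.5% and 9.64% of all expressed genes.

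A smaller part of the niche pathway receptors than of the cytokine receptors was expressed. The share over all genes in the tables was 45.8%. Of the TGF-β and BMP receptors 7 of 14 were expressed, with Eng, the TGF-β coreceptor endoglin, at 42.6, 31.2 and 38.9 FPKM, Tgfbr2 at 23.9, 9.24 and 17.6 FPKM and Tgfbr1 at 10.3, 5.58 and 9.37 FPKM. The BMP receptor genes Bmpr1a and Bmpr1b were not: Bmpr1a did not exceed 0.12 FPKM, and Bmpr1b had 0 counts in each mouse, where 3 counts would have been at most 0.0364 FPKM. Notch pathway genes passed for 3 of 9, namely Notch1, Notch2 (5.93, 3.16 and 5.25 FPKM) and the ligand gene Jag2 (6.67, 3.04 and 4.47 FPKM). The ligand genes Jag1, Dll1, Dll3 and Dll4 did not exceed 0.18 FPKM. Wnt receptors passed for 6 of 17, at low levels. Fzd6, a frizzled receptor, was the highest at 9.90, 4.02 and 6.38 FPKM, and the coreceptors Lrp6 and Lrp5 were at 6.12, 3.59 and 5.28 FPKM and 3.62, 2.92 and 3.29 FPKM. As deposited, all 6 had their highest value in WT mouse 1 and their lowest in WT mouse 2, against 42.4% and 49.7% of all expressed genes for each alone. These genes were long, at a median of 4473.5 bases, and the bin of median length 4327 bases leaned the same way. Without the length trend none had a 2-fold range, and Fzd6, Lrp6, Fzd9 and Fzd7 kept that order. Ryk was then lowest in WT mouse 3, and Lrp5 was highest in WT mouse 2 at 3.01, 3.73 and 3.08 FPKM.

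G protein-coupled receptors were expressed for 29 of 38 listed genes. The adhesion receptors Gpr56 and Eltd1 (Adgrl4) led, the latter at 283, 140.3 and 264 FPKM, followed by Gpr97 (Adgrg3) at 110.5, 123 and 150.1 FPKM and the orphan receptor Gpr171 at 101, 87.3 and 86 FPKM. Cxcr4, the receptor by which CXCL12 holds stem cells in the marrow, was at 16.5, 32.8 and 28.2 FPKM. It was lowest in WT mouse 1, as were 6 of the 29 genes (all expressed genes, 35%), whereas WT mouse 2 was lowest for 19 (all expressed genes, 49.7%). Prostaglandin E2 receptors were expressed in all 4 forms, with Ptger3 at 20.9, 14.9 and 23.6 FPKM and Ptger4 at 12.8, 7.73 and 10.5 FPKM. S1pr4 and S1pr1, receptors for the egress signal sphingosine 1-phosphate, were at 17.1, 18.5 and 16.5 FPKM and 12.2, 7.98 and 8.78 FPKM. P2ry14, a receptor for UDP-glucose, was at 49.6, 43.2 and 40.6 FPKM.

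Among adhesion genes, Cd47, the signal that restrains phagocytosis, was the highest at 433, 500.3 and 496 FPKM, and Selplg, the P-selectin ligand used in homing, was at 179.9, 209.9 and 221 FPKM. Itgb1, the common beta chain, was at 90.3, 37.3 and 67.2 FPKM. Its partner chains Itga6, Itga5 and Itga4 had means of 17.6, 12.4 and 11.7 FPKM. Itga4 was the chain with its lowest value in WT mouse 1, the other 2 having theirs in WT mouse 2. Cdh1 and Cdh2, the epithelial and neural cadherins, did not exceed 0.07 FPKM.

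**Figure D3:**
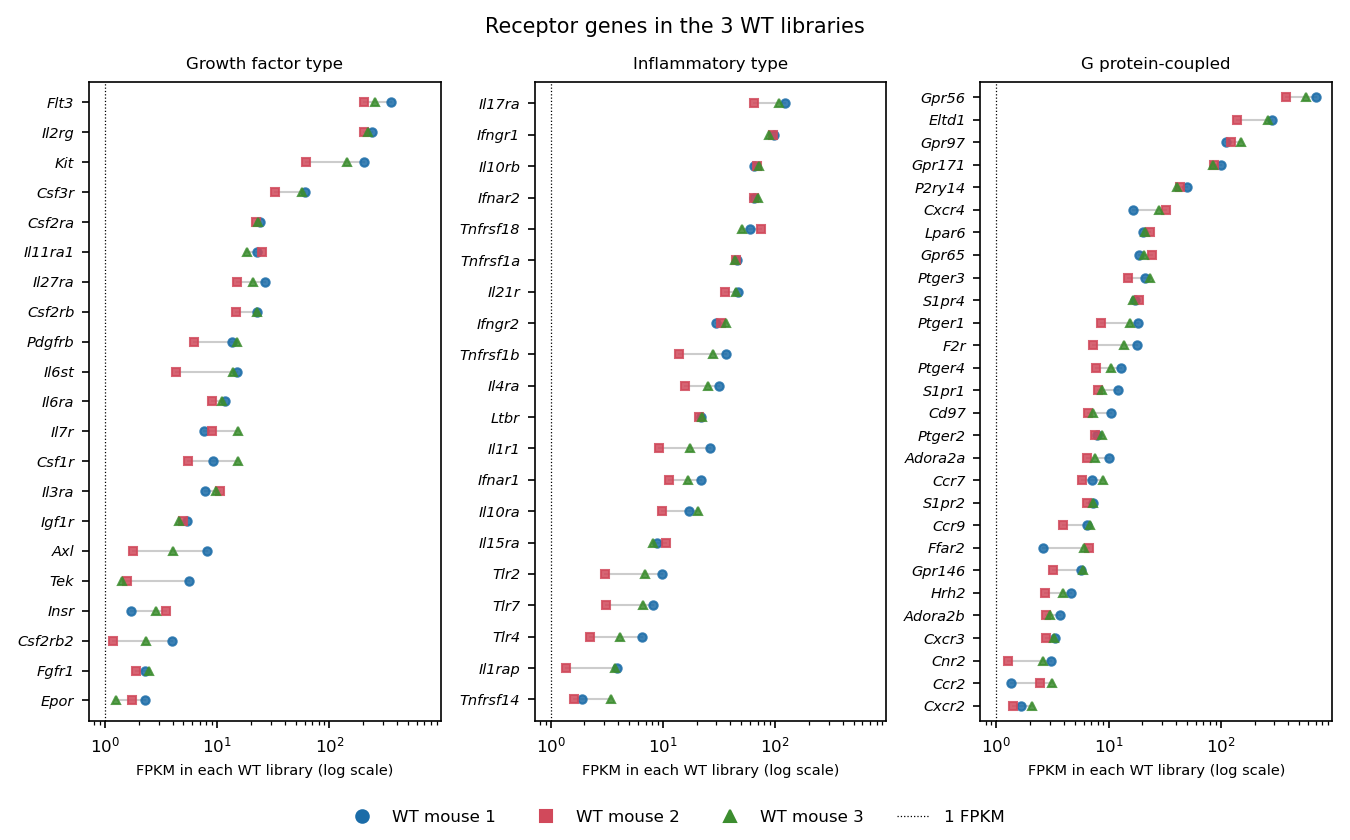
FPKM of receptor genes expressed in all 3 WT mice, a few of which are not shown (x axis, log scale, dotted line at 1 FPKM), in panels for growth factor type, inflammatory type and G protein-coupled receptors; each symbol is a WT mouse and each grey line joins a gene's 3 values. Gpr56, at 381 to 705 FPKM, stands highest, and for many genes, Kit and Il1r1 among them, WT mouse 2 is the lowest point.

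Lymphoid priming genes were expressed for 10 of 11, at a median of 32.8 FPKM over those 10. The median was 71.5 FPKM over the 15 expressed of 20 myeloid granule genes. Members under the threshold are left out of both medians. The expressed members also differed in length, at medians of 2670 bases (lymphoid priming) and 1002 bases (granule). Dntt, the template-independent polymerase of antigen receptor joining, ranked 122 at 365, 406 and 572 FPKM, near Cd34. Rag2 and Rag1, the recombinase genes, were at 12, 16.8 and 18.7 FPKM and 1.74, 2.94 and 3.43 FPKM. Other lymphoid-primed genes were steadier, as with Il12a, a cytokine subunit, at 109.5, 107 and 107 FPKM (CV 0.0127) and Gimap6, an immune GTPase, at 315, 297 and 264 FPKM. B cell genes were expressed for 11 of 14. Igll1 and Vpreb1, which make the surrogate light chain of the pre-B cell receptor, were at 156, 267 and 275 FPKM and 80.3, 168 and 167 FPKM, and Cd79a, a signalling chain of that receptor, at 79.7, 128 and 145 FPKM. WT mouse 1 was the lowest in 9 and WT mouse 3 the highest in 8 of the 11 genes, against 35% and 20.4% of all expressed genes. B cell genes were short, at a median of 1327 bases, and the place of WT mouse 2 changed with the length trend: the list's median log2 deviation was -0.48, 0.13 and 0.35 as deposited and -0.25, -0.18 and 0.41 without it. Genes with a range of 2-fold or more were 5 and then 2 of the 11, against 18.5% and 9.64% of all expressed genes. As deposited, the summed FPKM of the list was 612, 1004 and 1069.5, and its mature members Ms4a1 (CD20) and Cd22 did not exceed 2.64 FPKM.

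**Figure D4:**
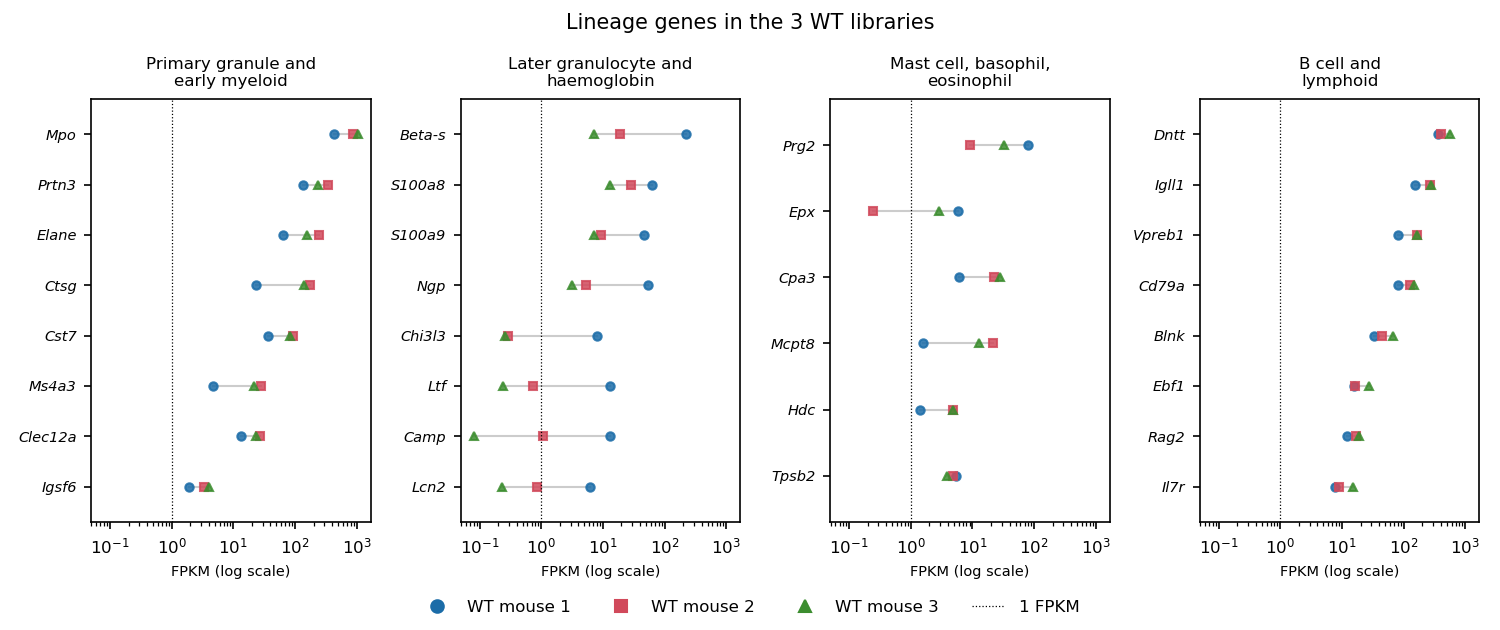
FPKM of lineage genes in each WT mouse (x axis, log scale, dotted line at 1 FPKM) in panels for primary granule and early myeloid genes, later granulocyte and haemoglobin genes, mast cell, basophil and eosinophil genes, and B cell and lymphoid genes, picked after their values were seen. WT mouse 1 is the lowest point for Ctsg (23.4 against 173 and 142 FPKM) and the highest for Ngp (53.1 against 5.41 and 3.15 FPKM).

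Genes of myeloid granules and secreted proteins were expressed for 15 of 20 and were, after histones, the list that varied most: 13 of 15 had a range of 2-fold or more, against 18.5% of all expressed genes, and 9 did without the length trend, against 9.64%. Primary granule genes and later granulocyte genes moved in opposite directions, a split made after the values were seen. Primary granule genes, which are switched on in early granulocyte-monocyte progenitors, were lowest in WT mouse 1. Mpo, myeloperoxidase (chromosome 11, 87793784 to 87804412), was at 431, 885 and 1051 FPKM. Elane, neutrophil elastase, was at 63, 242 and 159 FPKM, and Prtn3, proteinase 3, at 135, 342 and 233 FPKM. The gap was widest for Ctsg, cathepsin G, at 23.4, 173 and 142 FPKM. Ms4a3, a gene of the same progenitors, was at 4.76, 27.7 and 22 FPKM. Of the later granulocyte genes, Ngp, neutrophilic granule protein (chromosome 9, 110419808 to 110423012), was highest in WT mouse 1 at 53.1, 5.41 and 3.15 FPKM. So were S100a9 and S100a8, which form the calprotectin of neutrophil cytosol, at 46.6, 9.43 and 7.08 FPKM and 63.4, 28.8 and 13 FPKM. The secondary granule genes did not meet the threshold in all mice but had the same pattern: Ltf (lactoferrin) was at 13.1, 0.73 and 0.24 FPKM. Camp (cathelicidin) was at 13.2, 1.08 and 0.08 FPKM, and Lcn2 (lipocalin 2) at 6.18, 0.84 and 0.23 FPKM. Of the 15 expressed members WT mouse 1 was, as deposited, lowest in 11 and highest in 3, against 35% and 42.4% of all expressed genes. The summed FPKM of the whole list was 1926, 3879.8 and 3141 as deposited. The expressed members were short, at a median of 1002 bases. Their median log2 deviation was -0.64, 0.43 and 0.18 as deposited. Without the length trend it was -0.44, 0.12 and 0.21, with WT mouse 1 still lowest and WT mouse 3 then highest. The part of admixed neutrophils in the values of WT mouse 1 was not tested.

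Promoters from these opposed sets are printed as the 150 bases before the RefSeq start of 4 primary granule genes and 2 later granulocyte genes (GRCm38.p6, written 5′ to 3′ on the gene's own strand). Capitals mark exact matches, on either strand, to AGGAAG (the ETS core as bound by PU.1), AACGG (the MYB core) or TTGCNNAA (a form of the C/EBP palindrome with 2 free bases). The windows are chr11:87793634-87793783, plus strand for Mpo, chr10:79886162-79886311, plus strand for Elane, chr10:79879517-79879666, plus strand for Prtn3, chr14:56102575-56102724, minus strand for Ctsg, chr9:110419658-110419807, plus strand for Ngp and chr3:90695722-90695871, minus strand for S100a9.
Mpo: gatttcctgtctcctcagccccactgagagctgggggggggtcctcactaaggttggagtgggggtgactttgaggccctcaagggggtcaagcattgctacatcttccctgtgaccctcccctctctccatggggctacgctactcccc
Elane: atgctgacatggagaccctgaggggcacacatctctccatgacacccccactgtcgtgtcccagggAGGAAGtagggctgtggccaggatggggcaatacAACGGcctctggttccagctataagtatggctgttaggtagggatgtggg
Prtn3: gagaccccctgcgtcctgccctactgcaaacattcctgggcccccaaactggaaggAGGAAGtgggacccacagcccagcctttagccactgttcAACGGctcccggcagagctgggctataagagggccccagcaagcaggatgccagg
Ctsg: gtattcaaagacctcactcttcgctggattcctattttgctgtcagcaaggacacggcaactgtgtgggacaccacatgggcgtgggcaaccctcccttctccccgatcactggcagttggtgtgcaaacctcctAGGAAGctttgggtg
Ngp: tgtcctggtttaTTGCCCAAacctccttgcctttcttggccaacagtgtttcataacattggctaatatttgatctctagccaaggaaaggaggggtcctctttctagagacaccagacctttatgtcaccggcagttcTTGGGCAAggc
S100a9: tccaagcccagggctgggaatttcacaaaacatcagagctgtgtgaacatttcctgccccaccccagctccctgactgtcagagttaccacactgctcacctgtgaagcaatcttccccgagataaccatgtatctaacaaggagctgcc
Elane and Prtn3, neighbours on chromosome 10, each held 1 match to AGGAAG and, nearer the start, 1 to AACGG, and Ctsg held 1 match to AGGAAG. Ngp held 2 matches to TTGCNNAA, and the windows of Mpo and S100a9 held none of the 3. The window of S100a8, which is not printed, also held none of them. Over 32851 RefSeq promoters of the same window, AGGAAG was in 19.7%, AACGG in 9.44% and TTGCNNAA in 5.46%, so single matches are common, and a match is a string of letters and not a shown binding site.

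Over all genes the promoters of expressed genes differed in composition from the rest. Windows of the 8657 expressed genes with an entry had a median GC content of 62.7% and 11 CG dinucleotides, against 52% and 3 for the 9038 genes of the tables that were not expressed. The GC box GGGCGG was in 52.4% and 24.1% of the windows, and the TATA box TATAAA in 3.08% and 11.3%. AACGG was found in 12.9% and 7.47%, and the core site of the erythroid GATA factors, AGATAA, in 2.90% and 6.88%. AGGAAG hardly differed, at 18.7% and 19.2%. Base composition alone changes how often such letters occur, and its part in the motif shares was not tested.

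Genes of other myeloid lineages were uneven. Of the monocyte and dendritic cell genes 12 of 18 were expressed. Cd74, the invariant chain of class II histocompatibility, was at 94.7, 164 and 95 FPKM, and the class II chain genes H2-Ab1 and H2-Eb1 were at 73, 148 and 67.2 FPKM and 9.79, 24.1 and 6.85 FPKM. These 3 were highest in WT mouse 2, while Ly6c2, a monocyte surface antigen, was lowest in WT mouse 1 at 14.6, 29.7 and 33.7 FPKM. Of the mast cell, basophil and eosinophil genes 8 of 16 passed, with a median CV of 0.371 as deposited and of 0.459 without the length trend, the highest of the 39 ranked lists then. Several of its genes differed widely. Prg2, the eosinophil major basic protein (chromosome 2, 84980461 to 84983632), was at 79.9, 9.13 and 32.2 FPKM, and Epx, eosinophil peroxidase, at 5.92, 0.24 and 2.83 FPKM. Mcpt8, a basophil protease, was at 1.59, 21.2 and 12.9 FPKM, Cpa3, carboxypeptidase A3 of mast cells and basophils, at 5.99, 22.8 and 28.1 FPKM and Hdc, the histamine-forming enzyme, at 1.42, 4.85 and 4.85 FPKM. WT mouse 1 was highest for Prg2 and Epx and lowest for Mcpt8, Cpa3 and Hdc, genes picked after their values were seen. Over the 8 expressed members WT mouse 1 was highest in 4 and lowest in 4. Those highest there included Gata2 and the mast cell protease genes Tpsb2 (5.46, 4.82 and 3.87 FPKM) and Cma1 (3.00, 2.23 and 2.05 FPKM). Their values lay closer together than those of Prg2, Epx, Mcpt8, Cpa3 and Hdc. Without the length trend Gata2 was highest in WT mouse 2, at 45.4, 49.2 and 36.5 FPKM. Whether the direction divides by cell type was not tested.

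Erythroid genes were expressed for 9 of 20. Car2, carbonic anhydrase 2, was the highest at 688, 610.5 and 458 FPKM, and Nfe2, a factor of erythroid and megakaryocyte maturation, was at 291, 257 and 249 FPKM. The lineage regulators were low: Gata1 was at 3.47, 2.42 and 2.32 FPKM and Klf1, the factor that turns on adult globin, at 1.24, 0.72 and 1.08 FPKM. Beta-s (Hbb-bs), an adult beta-globin gene (chromosome 7, 103826523 to 103827928), was at 221, 18.8 and 7.21 FPKM, the highest CV of all expressed genes with a mean count of 50 or more (1.46). Genes of late red cells moved alongside it: Alas2, the erythroid haem enzyme, was at 11.7, 0.56 and 0.66 FPKM, and Slc4a1, the red cell anion exchanger, at 1.31, 0.06 and 0.01 FPKM. The alpha-globin genes Hba-a1 and Hba-a2, which are near-identical copies, had 0 counts in each mouse. The summed FPKM of the erythroid list was 1306, 959 and 788, and the part of residual red cell RNA in WT mouse 1 was not tested. Megakaryocyte genes were expressed for 10 of 21. Pf4, platelet factor 4, was at 10.6, 14.3 and 6.56 FPKM, and Vwf, a gene of platelet-biased stem cells, at 1.58, 0.15 and 0.19 FPKM, above 1 FPKM in WT mouse 1 only.

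Markers of mature and non-blood cells were mostly low, but some genes of antigens commonly used to deplete lineage cells passed: Itgam (CD11b) was at 14.8, 4.44 and 12.2 FPKM and Cd4 at 7.76, 4.23 and 5.63 FPKM. The T cell receptor genes Cd3e, Cd3d and Cd3g did not exceed 1.03 FPKM, and of 14 T and NK cell genes 3 passed, led by the kinase gene Lck at 51.8, 51.2 and 59.7 FPKM. Macrophage genes passed for 10 of 14, with C1qb, a complement subunit, at 17.5, 22 and 11.7 FPKM, Cd163, a haemoglobin scavenger receptor, at 5.68, 4.21 and 5.11 FPKM and a summed FPKM of 106, 108 and 80.6. Endothelial, stromal and bone genes passed for 5 of 18. The defining genes Cdh5 and Kdr of endothelium and Col1a1 of bone did not exceed 0.19 FPKM, and Cxcl12 of stroma was at 1.16, 0.01 and 0.15 FPKM. Xist was at 7.19, 18.5 and 11.5 FPKM and the Y-linked genes did not exceed 0.14 FPKM in any of the 3 mice.

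Cell cycle genes were expressed in full, all 30 of 30 for both the S phase and the mitosis list, at medians of 93.5 and 68.3 FPKM. Mcm6, a subunit of the replicative helicase, was at 425, 216 and 399.8 FPKM and Pcna, the sliding clamp, at 198, 291 and 229 FPKM. With the length trend removed Pcna came to 233, 234 and 244 FPKM (CV 0.0253). The mitotic genes were lowest in WT mouse 1 for 21 of 30, against 35% of all expressed genes. Ube2c, a ubiquitin-conjugating enzyme of mitotic exit, was at 151, 379 and 252 FPKM and Top2a, topoisomerase II, at 111, 132 and 117 FPKM. Of the kinases and cyclins of G1, Cdk4 was at 605, 766 and 639 FPKM, Cdk6 at 23.2, 39.2 and 43.2 FPKM and Ccnd3, cyclin D3, at 202, 207 and 291 FPKM. Cdk6 thus stayed far under Cdk4 in each mouse. Myc, the growth regulator, was at 281, 237 and 257 FPKM and ranked 290.

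Response genes differed by kind. Immediate early genes had a median CV of 0.139 over 15 genes as deposited, under the 0.198 of all expressed genes, but 0.173 without the length trend, above the 0.140 of all. Examples are Ier2 at 83.3, 93.7 and 77 FPKM and Junb at 34, 42.2 and 33.7 FPKM. Interferon response genes were expressed for 35 of 36. Ifi27l1 (Ifi27) was the highest at 162, 199 and 153 FPKM, followed by Bst2, tetherin, at 108, 193 and 146 FPKM. For 27 of the 35 WT mouse 2 was the lowest, and for 18 WT mouse 3 was the highest, against 49.7% and 20.4% of all expressed genes. Ifit3, an interferon-induced antiviral gene, was at 5.87, 1.10 and 4.59 FPKM, one of the 5 genes lowest in WT mouse 2 relative to both others. Chaperone genes had the lowest median CV of all ranked lists, 0.0677 over 20 genes, and 0.0884 without the length trend. Cct5, a subunit of the cytosolic chaperonin, was at 419.6, 453 and 444 FPKM, and Hspa8, the constitutive HSC70, at 650.3, 574 and 789.5 FPKM.

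Across all expressed genes the median CV over the 3 mice was 0.198, with quartiles of 0.114 and 0.309, where counting alone gives 0.0327. Removal of the length trend lowered it to 0.140. The log2 FPKM of the 10724 genes, which share a length and base composition across libraries, had a Pearson r of 0.938 between WT mice 1 and 2, 0.980 between 1 and 3 and 0.965 between 2 and 3. A range of 2-fold or more was found for 1989 genes (18.5%), and for 1034 (9.64%) without the trend. WT mouse 2 was at least 2-fold above both others for 131 genes (1.22%) and at most 1/2 of both for 407 (3.8%). For WT mouse 1 these were 64 (0.597%) and 52 (0.485%), and for WT mouse 3 they were 13 (0.121%) and 27 (0.252%). With the genes cut by level into 5 equal bins, the lowest bin had a median CV of 0.243 and the highest 0.191. Without the trend it fell from 0.228 to 0.0873 over the same bins, so its removal lowered the spread of high genes far more than that of low genes.

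The lists differed widely in how much they varied, and the order depended on the length trend. Of 39 lists with 5 or more expressed genes, replication-dependent histone genes varied most, with a median CV of 0.653 over 27 genes, 22 of them over a 2-fold range. Hist1h2ae was at 95.9, 390.0 and 111 FPKM and Hist1h4d at 101, 345 and 118 FPKM, and WT mouse 2 was highest in 23 of 27, against 37.2% of all expressed genes. Hist1h2ak went the other way at 69.2, 7.42 and 64.3 FPKM. Without the trend the histone median CV was 0.375, still second among lists. Cytosolic ribosomal protein genes had a median CV of 0.426, with 54 of 76 over a 2-fold range and WT mouse 2 highest in all 76. Rpl32 was at 1049.5, 2226 and 1286 FPKM as deposited and at 1432, 1469 and 1427 FPKM without the trend. With the trend removed their median CV was 0.0997 and 2 of the 76 had a 2-fold range. Nuclear-encoded respiratory chain genes did likewise, from 0.408 to 0.0881. Cox4i1, a cytochrome c oxidase subunit, was at 486, 1074 and 589 FPKM, while the longer Atp5b, the catalytic ATP synthase subunit, was even at 977, 1158 and 1044 FPKM. Ribosomal protein genes held 5.77, 9.78 and 6.49% of all FPKM, 7.34% ± 2.14 (SD, n = 3), and respiratory chain genes 3.35, 5.47 and 3.81%. Rpl26 and Ndufs5, of these 2 lists, were listed at 0 counts in each mouse.

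The spread of several lineage lists was less tied to length. The median CV moved from 0.438 to 0.362 for granule genes, from 0.354 to 0.298 for B cell genes and from 0.253 to 0.314 for megakaryocyte genes. Without the trend the most variable lists were mast cell, basophil and eosinophil, histone, granule and megakaryocyte genes. The steadiest were then proteasome genes at 0.0507, mitochondrial ribosomal protein genes at 0.0756 and S phase genes at 0.0875. Psma2, a core proteasome subunit, was at 257, 446 and 308 FPKM as deposited and at 322, 329.9 and 336 FPKM without the trend. Stem and progenitor transcription factors lay between these ends, at 0.234 and 0.164, near the values of 0.198 and 0.140 for all expressed genes. The other 2 stem cell lists varied more. Stem cell state regulators outside the transcription factors were at 0.261 and 0.306, ranked 5 of 39 without the trend. Stem and progenitor surface markers were at 0.271 and 0.257.

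**Figure D5:**
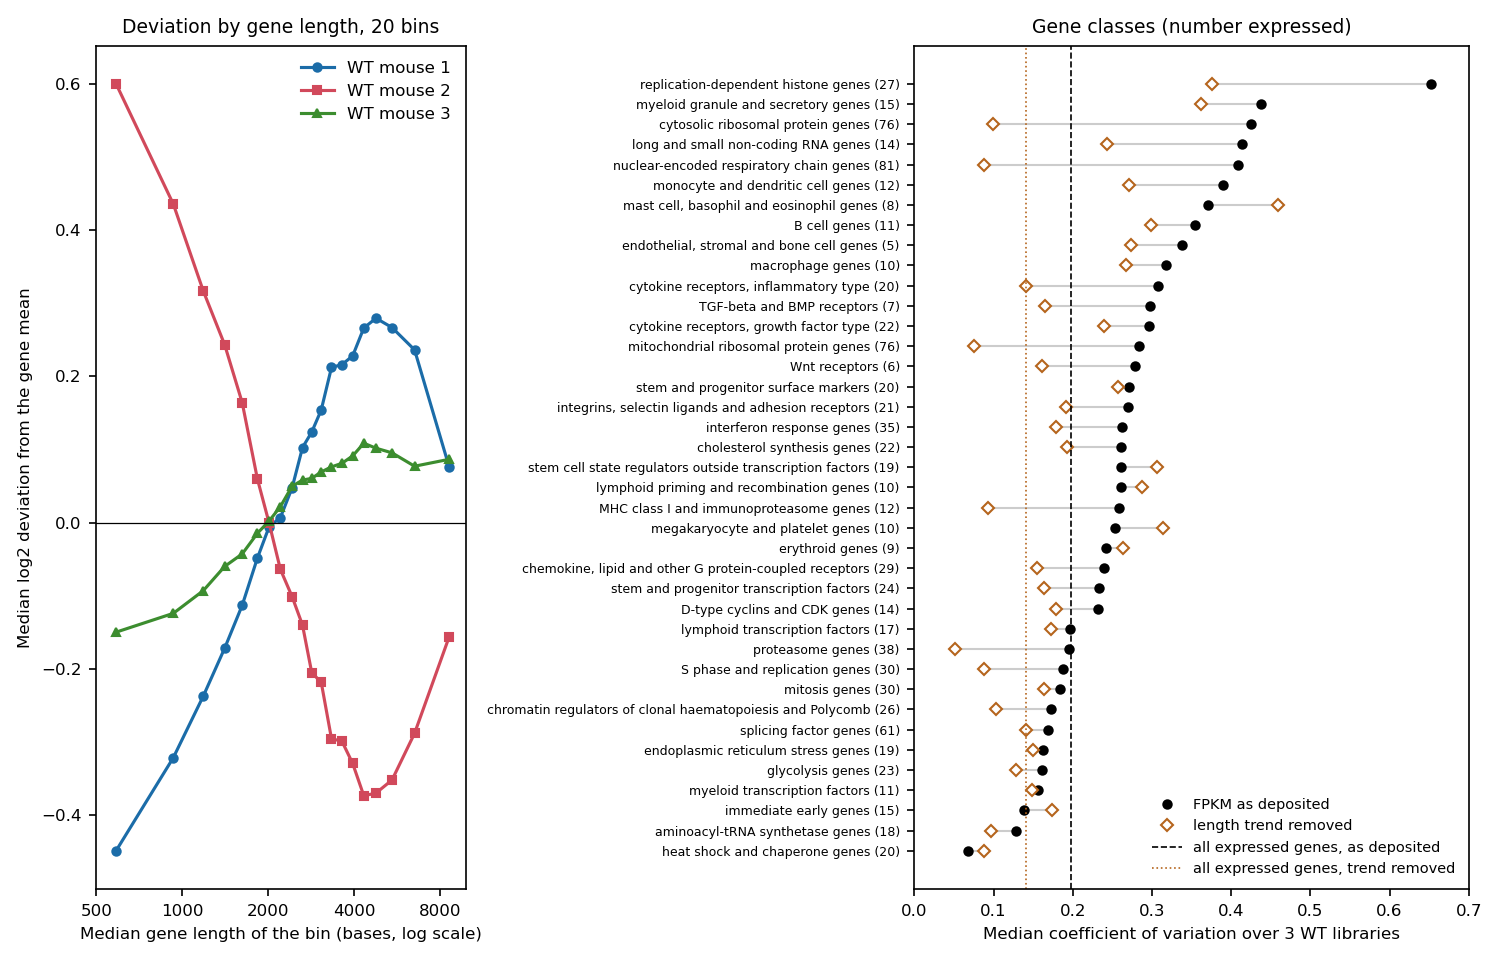
Left, median log2 deviation of each WT mouse from the gene's mean (y axis) in 20 bins of gene length (x axis, bases, log scale); right, median CV over the 3 WT mice for each list, as deposited (filled) and with the length trend removed (open), with vertical lines for all expressed genes at 0.198 and 0.140. WT mouse 2 falls from 0.60 in the shortest bin to -0.37, and ribosomal protein genes move from 0.426 to 0.0997 while mast cell, basophil and eosinophil genes move from 0.371 to 0.459.

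Single genes stood apart in each mouse. In WT mouse 1 the 5 with the highest ratio to both others were Beta-s, Ngp, S100a9, Ctsf and Tmem181b-ps, among which Ctsf, a lysosomal cathepsin, was at 20.7, 4.46 and 1.73 FPKM. In WT mouse 2 Ctse, cathepsin E of the endosome, was at 20.4, 112 and 19.6 FPKM and Rn45s at 458, 1662 and 561 FPKM. Psap, the precursor of the lysosomal saposins, was lowest there at 186, 47.6 and 165 FPKM. In WT mouse 3 the list was led by H2-Q4, a non-classical class I histocompatibility gene (chromosome 17, 35379617 to 35384674), at 4.97, 4.48 and 50.3 FPKM, or 10.1-fold above the next mouse. Of the 10 genes that were at least 2-fold higher in WT mouse 3 than in both others, with a mean count of 50 or more and a RefSeq position, 7 lay on chromosome 17 between 33974659 and 36121444, in the histocompatibility region, where chromosome 17 as a whole holds 5.35% of expressed genes. The 7 were H2-K2, BC051537, H2-DMb2, H2-Q4, H2-T24, C920025E04Rik and H2-T10. H2-DMb2, a chain of the class II peptide loader, was at 11.6, 7.91 and 28.8 FPKM, and H2-T24 at 5.87, 5.49 and 16.6 FPKM. Neighbours in the same interval did not share this: H2-K1 was even, H2-DMb1 was at 32.3, 38.9 and 34.1 FPKM and H2-T23, the gene of Qa-1, was lowest in WT mouse 3 at 207, 243 and 135 FPKM. The grouping by position was noticed after the values were seen, and these genes have near-identical relatives. Of 19 genes at most 1/2 of both others in WT mouse 3 under the same limits, 6 lay on chromosome 19, which holds 3.69% of expressed genes, Ctsf among them.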

How the data were processed

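RNA of LSK cells from 3 WT mice was sequenced as total RNA after stranded library preparation, per the labels' protocols. Reads were demultiplexed with bcl2fastq 2.17, aligned with STAR 2.5.2b and counted with featureCounts 1.5.0-p3 on mm10, per the submitters' processing notes. Which annotation and strand setting were used, and how reads with several matches were treated, is not given in the sources used here. For each gene the authors deposited a raw count and an FPKM value. The deposited FPKM equalled count over length and total count to within 0.005 in each WT library.

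Means, SDs, ranks and coefficients of variation over the 3 mice were computed with Python 3.11.15, numpy 2.4.6 and pandas 2.3.3, with no test, since there is 1 group. A gene needed 1 FPKM or more in every WT library. The length trend was taken out by subtracting each library's median log2 deviation in 20 bins of gene length. The step was tested on simulated data. Alternatives were TPM computed from the counts, edgeR 4.0.16 (TMM scaling and biological coefficient of variation), DESeq2 1.42.0 size factors (R 4.3.3), other thresholds, and leaving out each library. Named genes were the 15 highest, the 6 LSK markers, the 4 highest and the most variable member of each gene list, the regulators and receptors nearest the threshold, and the genes farthest from the rest in each mouse or most variable, with a mean count of 50 or more. Any member of the regulator and receptor lists could be named. Other genes were named for their known role after their values were seen. The gene lists were chosen with earlier results of these data known. Gene positions, biotypes and promoters came from RefSeq on GRCm38.p6, of which 10676 expressed genes had a match, and 13 older symbols were matched through RefSeq synonyms. Some members of the lists are counted but not reported here by name.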

Additional observations from a re-analysis of the deposited data

How the results depend on the processing

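The count of 10724 expressed genes stayed within 1.5 times under each alternative tried, from 9807 at a threshold of 2 FPKM to 11472 with TPM. The 1989 genes with a range of 2-fold or more became 1140 at 5 FPKM or more in every library, 1034 with the length trend removed and 307 at 3-fold, and leaving out 1 mouse gave 231 (without WT mouse 2) to 1797. A range over fewer mice cannot be wider, but a CV can rise or fall: the median CV over expressed genes was 0.0984 without WT mouse 2 and 0.236 without WT mouse 3, the lowest and highest of the 3. With 1 mouse left out, the median CV ranged from 0.162 (without WT mouse 1) to 0.615 for granule genes. For histone, ribosomal protein and respiratory chain genes it ranged from 0.217 to 0.665, 0.138 to 0.511 and 0.146 to 0.503, lowest without WT mouse 2 each time. With the length trend removed these 3 lists were at 0.375, 0.0997 and 0.0881. Chaperone genes moved from 0.0677 to 0.133 with TPM and to 0.209 as an edgeR biological coefficient of variation, which is moderated towards other genes. As a share of counts in place of FPKM, which drops the weight that FPKM gives short genes, the lists held 0.390% (granule), 0.0565% (histone), 2.82% (ribosomal protein) and 1.83% (respiratory chain). Over 39 lists and all genes together, the length trend moved 13 of 40 median CVs by over 1.5 times, and leaving out 1 mouse moved 37 of 120. The mean FPKM of each of the 232 named genes moved by less than the SD between mice under TMM and TPM. Leaving out 1 of 3 mice cannot move a mean by a full SD, so that alternative does not bear on the stability of the means. No paired analysis was possible because only 1 group was described. Depth limits the genes near 1 FPKM, of which the lowest mean count was 9 among genes of 200 bases or more.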
